A study of Mus musculus with 6 samples.

Results

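The genes described here are the mouse GATA factors Gata1, Gata2, Gata3, Gata4 and Gata6 and the collecting duct factor Tfcp2l1, a set of 6 genes out of 18193 named on the array. They were chosen by name, and every probe set annotated to 1 of them alone was taken, which gave 12 of 45037 probe sets. For a gene with several, the brightest on average stands for it and the others serve as a check. Gata2, Gata3 and Tfcp2l1, with 4 probe sets between them, had a mean signal above the median of all probe sets (85.5) and were tested, while the 8 other probe sets lay below it.

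The study used mpkCCD cells, an immortalised mouse line from the cortical collecting duct, the kidney segment where vasopressin controls water reabsorption through the water channel aquaporin 2 (AQP2). Colonies grown from it differ in AQP2, and the stated aim was to find transcripts that go along with Aqp2 mRNA from colony to colony. Each line gave 1 Affymetrix array of total RNA. All 6 lines had received 0.1 nM of the vasopressin analogue dDAVP for 5 days, so no line without it enters any comparison. The group without AQP2 is clone 2 alone. The group that expresses AQP2 holds clone 3, clone 9, clone 10, clone 11 and the original cells. The design text names the original cells apart from the clones, but the title of that sample has the word clone in it, and which holds was not settled here. With 1 array per line, the spread given for the 5 expressing lines is a spread between lines, and clone 2 was assumed to vary as they do. A colony is 1 clone, so whatever differs between clone 2 and the others includes anything else that sets this clone apart.

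GATA factors are zinc finger proteins that bind DNA at the letters GATA with a preference for certain flanking bases. Gata1 works in red cell, platelet and mast cell precursors, and Gata4 and Gata6 in heart and endoderm. Gata3 is needed in the mouse nephric duct, from which the collecting duct grows, and stays on in the adult duct. Gata2 acts in blood stem cells and in the urogenital tract, and mice that lack it in the renal tubules have less Aqp2. Tfcp2l1 belongs to the CP2 family, which is related to the grainyhead factors. It patterns principal and intercalated cells of the mouse collecting duct and also takes part in the naive pluripotency network of mouse embryonic stem cells.

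Sequence just upstream of Aqp2 is shown because Aqp2 is the transcript that the GATA factors are set against here. RefSeq promoter sequences (GRCm38.p6) were matched by symbol for Aqp2, Gata1, Gata2 (2 start sites), Gata3 and Tfcp2l1. Each ran from 250 bases before to 50 bases after a start site and was searched on both strands for GATA preceded by A or T and followed by A or G, that is AGATAA or AGATAG and likewise TGATAA or TGATAG. The Aqp2 promoter held 2 matches. The first is AGATAA on the opposite strand, printed as TTATCT, from 202 to 197 bases before the start, and the second is TGATAG on the strand of the gene, from 145 to 140 bases before it. The 250 bases upstream lie at chr15:99578806-99579055 on the plus strand and read as follows, with the matches in capitals.
Aqp2 upstream: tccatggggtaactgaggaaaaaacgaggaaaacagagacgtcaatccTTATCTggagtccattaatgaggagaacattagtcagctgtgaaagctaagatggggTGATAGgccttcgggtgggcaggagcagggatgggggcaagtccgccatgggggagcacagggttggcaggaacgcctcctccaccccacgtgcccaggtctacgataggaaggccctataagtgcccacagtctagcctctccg
Gata3 held 1 match, TGATAG at bases 37 to 42 after its start, which stands within these 24 bases at chr2:9878551-9878574, minus strand.
Gata3 window: ggcgccgtctTGATAGtttcagaa
The windows of Gata1, Gata2 and Tfcp2l1 held none of these letters. Of 32851 promoters of the same length, 29.8% held at least 1 match and 7.77% held at least 2. A simplified CP2 motif, CCAG followed after any 6 bases by CCAG again (its reverse also counted), occurred in 3.44% of promoters and in none of these 6 windows. A match describes letters only, and binding was not measured.

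The arrays were close to each other in level, with a median signal between 79.6 (clone 2) and 88.6 (clone 10). No detection calls were used, so 80 probe sets annotated to olfactory and vomeronasal receptors were taken as a mark of background, and their 95th percentile lay between 43.8 in clone 2 and 65.7 in clone 9. Aqp2 had a signal of 159.3 in clone 2, against 1066.4 in clone 10, 1697.9 in clone 3, 4683.4 in clone 9, 6577.7 in clone 11 and 3822.4 in the original cells. Its log2 difference, clone 2 minus the mean of the expressing lines, was -4.05 (SE 0.79, adjusted p = 0.0388 by limma), a call that held in 8 of 13 other settings (adjusted p from 0.0174 to 0.157) and was lost without clone 11 (0.0535) or the original cells (0.0869), with no filter (0.0814), with no variance trend (0.0857) and with robust eBayes (0.157). The labels group the lines by whether they express AQP2, so a lower Aqp2 in clone 2 is built into the grouping. The test on Aqp2 is therefore no independent evidence for that grouping. In bulk RNA of a line, fewer cells with a transcript and less of it per cell cannot be told apart.

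Of the members tested, Gata2 differed most between lines, Gata3 was lower in clone 2 and nearly level in the rest, and Tfcp2l1 differed least from clone 2 to the others. In each of the 4 tested probe sets clone 2 lay below every expressing line, which was also true of 29.3% of all probe sets tested. In limma with Benjamini-Hochberg adjustment over all 22518 probe sets, 1 of the 4, Gata3, was called between clone 2 and the expressing lines at an adjusted p under 0.05, beside 2.49% of all probe sets in either direction and 1.67% in the direction of Gata3, lower in clone 2.

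**Figure D1:**
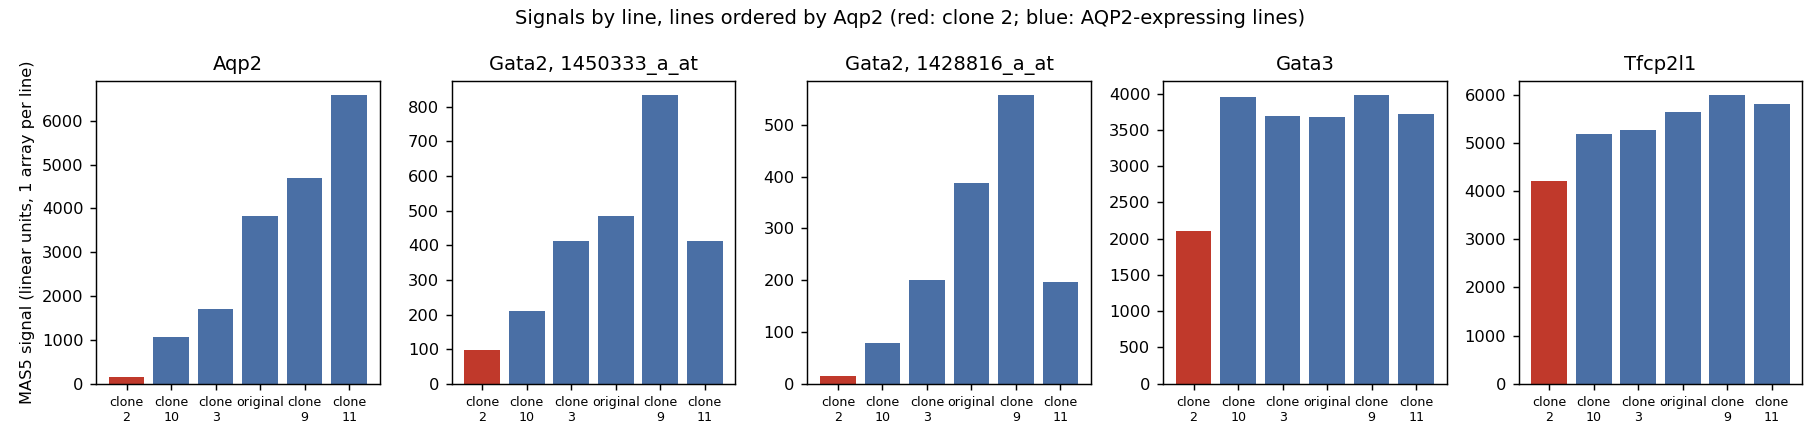
MAS5 signal (linear units, y axes from 0) of Aqp2, both tested Gata2 probe sets, Gata3 and Tfcp2l1 in each of the 6 lines, 1 bar per array, with lines ordered by Aqp2 and clone 2 in red. Clone 2 is the lowest bar in every panel, the Gata2 bars differ widely among the blue expressing lines, and the Gata3 bars of those lines stand between 3679.8 and 3975.0.

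Gata2 (chromosome 6) had a signal of 98.2 in clone 2, against 209.7 in clone 10, 412.1 in clone 3, 832.9 in clone 9, 412.1 in clone 11 and 485.9 in the original cells. Clone 2 was thus the lowest line, clone 10 the next, clone 9 the highest, and clones 3 and 11 were level. The mean of the expressing lines was 470.5 ± 227.2 (SD, n = 5), and clone 2 had 20.9% of it. The log2 difference of clone 2 was -1.94 (SE 0.53, 95% interval -3.13 to -0.75), which did not pass the threshold (adjusted p = 0.0880, limma). It passed without clone 9 (-1.71, adjusted p = 0.0492, limma) and without clone 10 (-2.18, adjusted p = 0.0357, limma).

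The second Gata2 probe set ordered the lines in the same way, with a signal of 15.0 in clone 2, against 79.5 in clone 10, 199.5 in clone 3, 556.6 in clone 9, 195.5 in clone 11 and 388.0 in the original cells. The clone 2 value lay below the receptor mark of its array (43.8), and all 5 expressing lines lay above theirs. The mean log2 signal of the expressing lines, as a signal of 231.8, was 5.30-fold the mark in clone 2. That mean was thus at least 5.30-fold above clone 2 itself, while single lines such as clone 10 stood nearer to the mark. The fitted log2 difference, -2.92 (SE 0.75, adjusted p = 0.0771, limma), depended on the offset, since it was -3.95 without one (adjusted p = 0.0464, limma) and -2.40 with a doubled one (adjusted p = 0.102, limma). Over the 6 lines the 2 probe sets had a Pearson r of 0.988 and ranked the lines alike. They read 1 transcript of the same RNA and are not replicates of each other.

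Among the expressing lines alone, Gata2 was more uneven than most transcripts of its level. The log2 SD over those 5 lines was 0.68, against a median of 0.21 among 2893 probe sets with a mean signal within 1.25-fold of it, and 2.21% of those were at least as uneven. For the second probe set the SD was 0.98, and 1.91% of probe sets of like signal reached it. Each expressing line was then set against the other 4. Clone 9 was 1.15 higher in Gata2 on the log2 scale (unadjusted p = 0.0141, adjusted p = 0.266, limma, with 0.573% of probe sets called) and clone 10 was 1.22 lower (log2 difference -1.22, unadjusted p = 0.0102, adjusted p = 0.986, limma, with 0.0% called). No tested member was called in any of the 5 such comparisons, and the calls over all probe sets were 0.00444% each for clone 3, clone 11 and the original cells.

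Gata3 (chromosome 2) had a signal of 2109.0 in clone 2, against 3960.4 in clone 10, 3697.7 in clone 3, 3975.0 in clone 9, 3720.8 in clone 11 and 3679.8 in the original cells. The groups did not overlap, and the highest expressing line was 1.08 times the lowest. The expressing lines averaged 3806.7 ± 147.8 (SD, n = 5), and clone 2 had 55.4% of that level. Gata3 fell in clone 2 by 0.85 on the log2 scale (SE 0.12, 95% interval -1.13 to -0.56, adjusted p = 0.0146, limma). The call held without each expressing line in turn (differences from -0.86 to -0.83) and ended when the variance model had no trend with signal level (adjusted p = 0.0577, limma).

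Across the expressing lines Gata3 was more even than most transcripts of its level. Its log2 SD over the 5 lines was 0.06, against a median of 0.15 among 1125 probe sets of like signal, and 96.7% of those were at least as uneven. None of the 5 expressing lines was called against the other 4 in Gata3, and the order among them is within their spread. On chromosome 2 the median log2 difference of clone 2 over 811 genes was -0.13, and over all 10342 genes it was 0.01. The part of such regional shifts in the Gata3 difference was not tested.

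Tfcp2l1 (chromosome 1) had a signal of 4197.3 in clone 2, against 5184.2 in clone 10, 5264.7 in clone 3, 5983.3 in clone 9, 5813.1 in clone 11 and 5637.7 in the original cells. Every expressing line was above clone 2, and the lines stood in the order of their Aqp2 signals except that clone 9 was above clone 11. The mean of the expressing lines was 5576.6 ± 345.1 (SD, n = 5), and clone 2 had 75.3% of it. The log2 difference was -0.41 (SE 0.13, 95% interval -0.69 to -0.12) and did not pass the threshold (adjusted p = 0.126, limma). Neighbours among the expressing lines differed by at most 1.07-fold.

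The median log2 difference of clone 2 over 571 genes of chromosome 1 was -0.28, so Tfcp2l1 was lower beside a chromosome whose genes were on the whole lower too. For Gata2 the sign was opposite, with a median of 0.13 over 496 genes of chromosome 6. The part of the chromosome 1 shift in the Tfcp2l1 difference was not tested. The other Tfcp2l1 probe sets gave signals of 9.0 and 4.5 in clone 2, against 1.4 to 7.0 and 1.1 to 32.1 in the expressing lines, all below the receptor mark. They give no check of the first probe set.

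The relation to Aqp2 was fitted as a slope, the log2 change of a member for each log2 unit (a doubling) of Aqp2. Over all 6 lines Gata2 rose with Aqp2 by 0.47 (SE 0.08, 95% interval 0.28 to 0.66, adjusted p = 0.0335, limma), or 1.39-fold per doubling. Its second probe set rose by 0.70 (SE 0.12, adjusted p = 0.0315, limma). These were 2 of the 4 tested member probe sets, but both are of Gata2, 1 of the 3 genes tested. Beside them stand 1.76% of all 22517 probe sets called in either direction and 1.02% of all that rose. The lowest point of the second probe set, clone 2, is the one below the receptor mark. Gata3 had a slope of 0.15 (SE 0.04, 95% interval 0.06 to 0.25, adjusted p = 0.0919, limma) and Tfcp2l1 one of 0.09 (SE 0.02, 95% interval 0.04 to 0.15, adjusted p = 0.0789, limma), neither past the threshold.

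Over the 5 expressing lines, without clone 2, the Gata2 slope was 0.45 with a wide 95% interval of 0.06 to 0.84 (unadjusted p = 0.0293, adjusted p = 0.377, limma). It rested on single lines, being 0.15 without clone 10, 0.32 without clone 9 and 0.73 without clone 11. The second Gata2 probe set had a slope of 0.63 (SE 0.24, adjusted p = 0.386, limma), which was 0.21 without clone 10 and 1.11 without clone 11. The Gata3 slope was -0.01 (95% interval -0.13 to 0.10, adjusted p = 0.942, limma) and the Tfcp2l1 slope 0.08 (95% interval -0.02 to 0.18, adjusted p = 0.548, limma). The intervals of the members overlap, and the differences between their slopes were not tested. No member passed in this fit, in which 0.0133% of all probe sets were called and 2586 had an unadjusted p under 0.05.

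**Figure D2:**
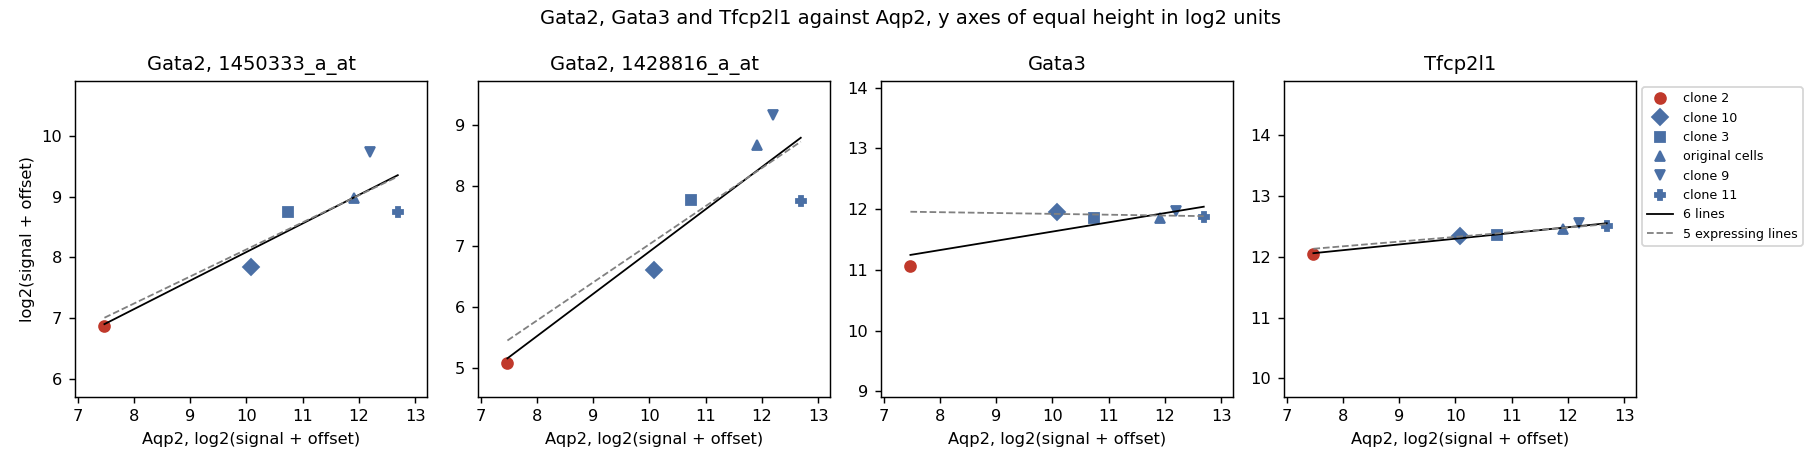
Gata2 (both probe sets), Gata3 and Tfcp2l1 against Aqp2, each axis as log2(signal + 18.8) and y axes of equal height, with 1 point per line and clone 2 in red. The solid line is the slope over 6 lines and the dashed line that over the 5 expressing lines: they lie close together for Gata2 and Tfcp2l1, while for Gata3 the dashed line is flat (slope -0.01) and passes above clone 2.

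The line through the 5 expressing lines, carried down to the Aqp2 level of clone 2, gives a signal to set beside the measured one. For Gata2 clone 2 measured 98.2 against 109.6 from the line, a value carried by a slope that moved between 0.15 and 0.73 without 1 line. For Tfcp2l1 clone 2 measured 4197.3 against 4476.1, and for Gata3 2109.0 against 3956.1. As a fit added after the data were seen, this distance was tested with Aqp2 as a covariate, in which 0.0355% of probe sets were called. The clone 2 term was -0.13 for Gata2 (95% interval -1.98 to 1.72, adjusted p = 0.965, limma), -0.09 for Tfcp2l1 (adjusted p = 0.894, limma) and -0.90 for Gata3 (95% interval -1.44 to -0.36, unadjusted p = 0.0047, adjusted p = 0.237, limma). The Gata3 interval lies below 0, yet its adjusted p does not pass, and the Gata2 interval is wide.

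Gata2 did not follow Aqp2 exactly line by line. Around the slope over 6 lines, clone 9 stood 0.61 above on the log2 scale, clone 3 0.31 above, the original cells at -0.01, clone 2 at -0.03, clone 10 at -0.29 and clone 11 at -0.60. Clone 11, the line with the most Aqp2, thus had less Gata2 than clone 9 and the original cells, by both probe sets. The slope of Gata2 was 0.41 to 0.56 without 1 expressing line in turn. It was steepest without clone 11 (0.56, SE 0.07), a fit in which no probe set at all was called. It missed the threshold without clone 11 (adjusted p = 0.0661, limma) and without the original cells (adjusted p = 0.0765, limma), and also with no signal filter (adjusted p = 0.0858) or no variance trend (adjusted p = 0.0853).

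As a description over the 6 lines, the Pearson r with Aqp2 was 0.90 for Gata2, 0.84 for Gata3 and 0.98 for Tfcp2l1, and Spearman's rho was 0.66, 0.49 and 0.94 in the same order of genes. Without clone 2 and clone 11, the lines farthest from the median of Aqp2, r over the remaining 4 lines was 0.93 for Gata2, -0.10 for Gata3 and 0.95 for Tfcp2l1. Clone 11 was also the line farthest below the Gata2 slope (-0.60 on the log2 scale), so the value for Gata2 leaves out that departure. It does not stand for r over the 5 expressing lines, which is not given here. Both signals of a point come from 1 array and share its scaling. Tfcp2l1 had the closest relation and the smallest range, 1.43-fold from its lowest to its highest line, against 8.48-fold for Gata2. Between members, r was 0.78 for Gata2 and Gata3, 0.93 for Gata2 and Tfcp2l1 and 0.90 for Gata3 and Tfcp2l1 (n = 6 lines).

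**Figure D3:**
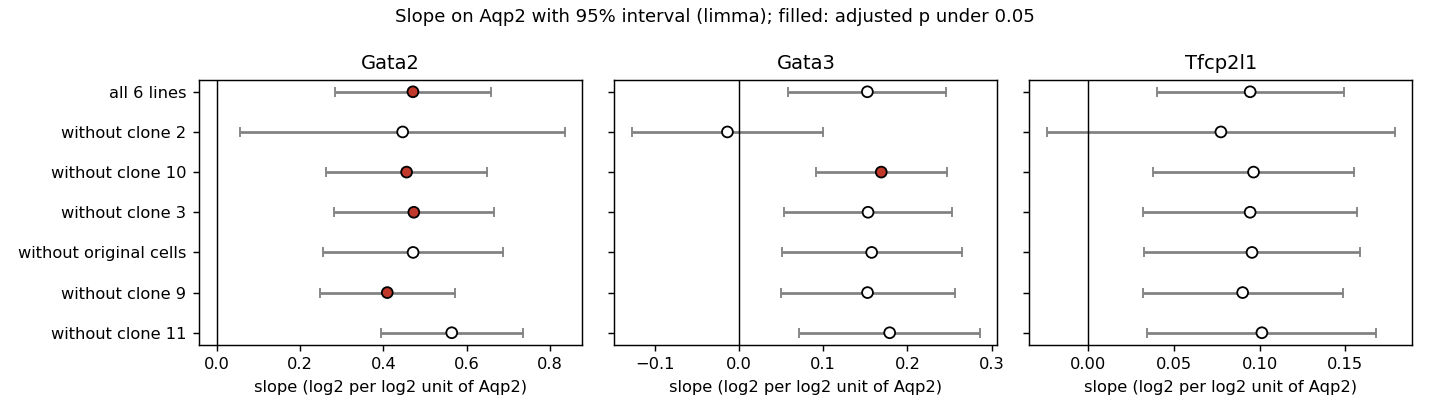
Slope on Aqp2 (log2 per log2 unit of Aqp2) of Gata2, Gata3 and Tfcp2l1 with all 6 lines and without each line in turn, as points with 95% intervals from limma, filled where the adjusted p is under 0.05. The Gata2 slope stays between 0.41 and 0.56, and that of Gata3 lies at -0.01 when clone 2 is left out.

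Gata1, Gata4 and Gata6 were near the receptor mark in these lines. Gata1 (chromosome X), the red cell and platelet factor, had a signal of 50.9 in clone 2, against 31.8 to 50.8 in the expressing lines (42.4 ± 8.0, SD, n = 5), and lay above the mark in 1 of 6 lines. Gata4 (chromosome 14) had 37.7 in clone 2, against 3.3 to 95.6 in the expressing lines, and was above the mark in 2 lines, clones 9 and 10. Its second probe set had 2.6 in clone 2, against 4.4 to 23.6 in the expressing lines, and was above the mark in none.

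Gata6 (chromosome 18) had 35.5 in clone 2 for its first probe set, against 17.1 to 71.7 in the expressing lines. The other Gata6 probe sets had 54.2 and 21.7 in clone 2, against 4.2 to 65.0 and 5.1 to 51.0 in the expressing lines. The 3 Gata6 probe sets were above the mark in 1, 2 and 1 of 6 lines. All were below the signal filter. With no filter, none was called between clone 2 and the expressing lines, with log2 differences of 0.20 for Gata1 (adjusted p = 0.889, limma), 0.16 for Gata4 (adjusted p = 0.957, limma) and -0.02 for Gata6 (adjusted p = 0.992, limma). At signals this low a difference in these factors was not detectable rather than absent.

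**Figure D4:**
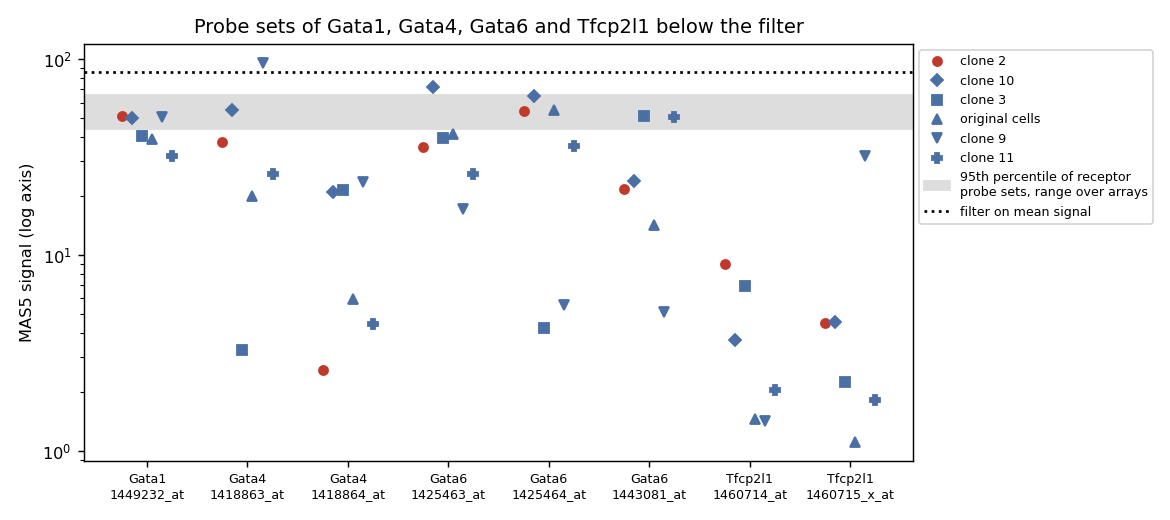
MAS5 signal (log axis) in each line of the 8 probe sets below the filter, for Gata1, Gata4, Gata6 and Tfcp2l1, with clone 2 in red. The grey band spans the 95th percentiles of the receptor probe sets over the arrays (43.8 to 65.7) and the dotted line is the filter (85.5), and most points lie in or below the band.

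The genes around GATA factors and Tfcp2l1 were taken as lists, each gene by its brightest probe set. Of 18 GATA relatives and partners, 9 passed the filter and 1 was called in clone 2. Beside it stand 2.49% of all probe sets called in either direction and 1.67% called lower. Zfpm1 (FOG-1), a zinc finger cofactor that binds GATA factors, had a signal of 230.5 in clone 2, against 546.9 ± 60.6 in the expressing lines (SD, n = 5), and fell by 1.17 on the log2 scale (SE 0.21, adjusted p = 0.0282, limma). Its call was lost without clone 3, clone 10 or the original cells (adjusted p from 0.0503 to 0.0713, limma), with no signal filter (adjusted p = 0.0539) and without the variance trend (adjusted p = 0.0503). In all, the Zfpm1 call held in 7 of 13 other settings, with log2 differences from -1.50 to -1.08, and the settings named above are not all that lost it. The median log2 difference of the 9 was -0.48, against -0.03 over all probe sets tested. Their summed signal, with the untested members, was 11009 in clone 2, against 12313 to 13847 in the expressing lines.

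Of 5 CP2 and grainyhead genes, 4 passed the filter, none was called and none had an unadjusted p under 0.05 (limma), with a median log2 difference of 0.01 and values from -0.22 (Grhl1) to 0.22 (Tfcp2). Grhl2, a grainyhead factor of epithelial junctions, had 1903.6 in clone 2, against 1907 ± 112 in the expressing lines. Ubp1, a close CP2 relative, had 1904.6 in clone 2, against 1895 ± 262 in the expressing lines (SD, n = 5 each).

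Of 14 nephric duct genes that act with Gata3 in development, 5 passed the filter and none was called, while 2 had an unadjusted p under 0.05 (limma, against 4506 of all 22518 probe sets in this comparison), and the median was -0.09. The duct factor Pax8 had 2393.4 in clone 2, against 2946 ± 105 in the expressing lines (log2 difference -0.30, adjusted p = 0.234, limma). Wnt7b, a ligand made by the collecting duct, had 4034.9 in clone 2, against 4305 ± 275 in the expressing lines.

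Of 13 collecting duct fate genes around Tfcp2l1, 8 passed and none was called, with 4 at an unadjusted p under 0.05 (limma, as did 4506 of all 22518 probe sets) and a median of -0.18. The receptor Notch2, which acts in the choice between principal and intercalated fate, had 2817.0 in clone 2, against 3941 ± 136 in the expressing lines (log2 difference -0.48, adjusted p = 0.0734, limma). Adam10, the protease that cleaves Notch receptors, had 3511.0 in clone 2, against 3716 ± 277 in the expressing lines.

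Of 9 naive pluripotency genes, the other setting in which Tfcp2l1 is known, 6 passed and none was called, with 2 at an unadjusted p under 0.05 (limma, as did 4506 of all 22518 probe sets) and a median of -0.09. Esrrb, a nuclear receptor of that network, had 7145.4 in clone 2, against 4482 ± 759 in the expressing lines (log2 difference 0.69, adjusted p = 0.140, limma), and was called without clone 9 (0.57, adjusted p = 0.0405, limma). Klf5 had 3781.5 in clone 2, against 4056 ± 230 in the expressing lines.

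**Figure D5:**
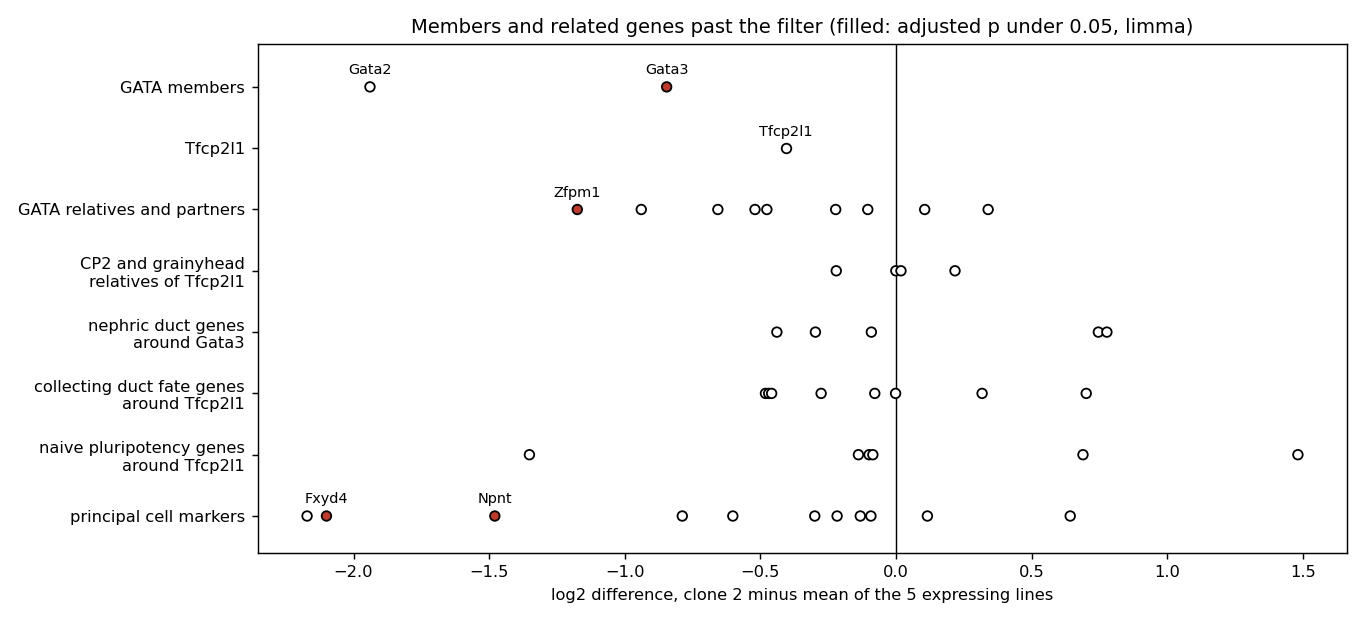
Log2 difference of clone 2 minus the mean of the 5 expressing lines for the members and related genes past the filter, 1 point per gene, by list, filled where limma's adjusted p was under 0.05. Gata3 (-0.85) and Zfpm1 (-1.17) are filled among the GATA genes and partners, and no point is filled in the lists around Tfcp2l1.

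Cell type markers were read beside these values. Of 14 principal cell markers 12 passed the filter and 3 were called lower in clone 2, beside 1.67% of all probe sets. These were Fxyd4, Npnt and Aqp2, the gene by which the labels group the lines. The median log2 difference of the 12 was -0.45, with 10 below 0 and 2 above it. The 2 above were Aqp3 (0.64) and Avpr2 (0.12), neither of them called. All 14 markers summed to a signal of 55262 in clone 2, against 73524 to 85673 in the expressing lines, and Mal and Krt18, neither of them called, make up most of each sum. Fxyd4, a regulator of the sodium pump in the collecting duct, fell by 2.10 on the log2 scale (adjusted p = 0.00977, limma), and Npnt, a basement membrane protein, fell by 1.48 (adjusted p = 0.00347, limma). Of 12 intercalated cell markers 3 passed, with a median log2 difference of 0.70. Aqp6, with a signal of 39.0 in clone 2 that is below the receptor mark, fell by 2.36 (adjusted p = 0.00648, limma), while Atp6v1b1, a proton pump subunit, had 949.3 in clone 2, against 585 ± 107 in the expressing lines (log2 difference 0.70, adjusted p = 0.177, limma), and Rhcg, an ammonia channel, had a log2 difference of 0.75 (adjusted p = 0.845, limma). Both were named after their values were seen. All 11 intercalated markers with a probe set summed to 1508 in clone 2, against 1117 to 2723 in the expressing lines. Of 6 proximal tubule markers 1 passed, Lrp2, and it fell by 2.83 (adjusted p = 0.00247, limma). Their part in the member differences was not tested.

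Most markers with a probe set, of the tissues where other GATA factors act, lay below the signal filter. Of 12 markers of red cells, megakaryocytes and mast cells 2 passed the filter, and neither was called nor had an unadjusted p under 0.05 (limma). Itga2b, an integrin chain of platelets, had 338.5 in clone 2, against 439 ± 104 in the expressing lines, and Epor, the erythropoietin receptor, had 419.6 in clone 2, against 405 ± 60 in the expressing lines. The 9 genes of this list with a probe set, 7 of them below the filter, summed to 973 in clone 2, against 935 to 1198 in the expressing lines. None of 6 endothelial and 7 heart and endoderm markers passed the filter.

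On the slope over 6 lines, none of the related genes or markers was called, and over the 5 expressing lines none was either. At an unadjusted p under 0.05 in limma over 6 lines, which 19.9% of all probe sets reached, there were 2 of 9 GATA relatives and partners, 0 of 4 CP2 and grainyhead genes, 2 of 5 nephric duct genes, 3 of 8 collecting duct fate genes, 3 of 6 naive pluripotency genes and 4 of 11 principal cell markers. The intercalated cell, proximal tubule and red cell lists had 1 each. Over the 5 expressing lines, where 11.5% of all probe sets reached it, such genes numbered 1 each among the naive pluripotency genes, the principal cell markers and the red cell list, and 0 in the others.

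The transcripts most like each member were taken as those with the highest Pearson r over the 6 lines among 10341 genes. For Gata2 these were Ankrd12 (r = 0.994), Tnrc6c (r = 0.994) and Nup37 (r = 0.992). Ankrd12 had a signal of 390.8 in clone 2, against 560.3 in clone 10 and 1097.9 in clone 9, its lowest and highest expressing lines, which were also those of Gata2. Aqp2 ranked 274th among the genes most like Gata2.

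For Gata3 the nearest were Ebf4 (r = 0.999), Hoxd3os1 (r = 0.997) and Dram1 (r = 0.997), with Aqp2 at rank 855. Ebf4 and Hoxd3os1 are encoded on chromosome 2 like Gata3, and Dram1 on chromosome 10. Ebf4, a factor of the early B cell factor family, had 39.8 in clone 2, against 235.6 to 285.2 in the expressing lines. Dram1, a lysosomal membrane protein of autophagy, had 18.2 in clone 2, against 267.0 to 446.8 in the expressing lines. All were lowest in clone 2, where Ebf4 and Dram1 lay below the receptor mark, and with 6 points 165 genes had an r above 0.95 with Gata3.

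For Tfcp2l1 the nearest were Pdzd8 (r = 0.999), 5730455P16Rik (r = 0.997) and Stt3b (r = 0.992), and Aqp2 ranked 32nd. Pdzd8, a protein of contacts between organelles, had 1394.1 in clone 2, against 2064.6 in clone 10 and 2842.3 in clone 9, the lowest and highest expressing lines of Tfcp2l1 as well. An r above 0.95 was reached by 171 genes for Tfcp2l1 and by 85 for Gata2.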

How the data were processed

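Total RNA of 6 mpkCCD lines was labelled with biotin and hybridised to Affymetrix mouse arrays, per the labels' protocols. Per the submitters' processing notes, the deposited values are MAS5 signal intensities from Affymetrix Expression Console 1.1, and they are linear. The deposited signals have a mean of 500 on every array once the lowest and highest 2% are trimmed, as computed here, and MAS5 makes low signals noisy. Control probe sets (64) were left out. Of 45037 probe sets, 34945 had 1 gene, 932 several and 9160 none in the platform annotation, updated to GRCm38.p6 for 34737.

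An offset of 18.8 (25th percentile) was added to each signal before log2, which shrinks fold changes of dim probe sets. Tests took those with a mean signal above 85.5 and used limma 3.58.1, R 4.3.3 (eBayes with trend, two-sided, Benjamini-Hochberg over all tested, threshold 0.05), with 4 residual degrees of freedom over 6 lines. The number of arrays limits the precision, and the labels give no batch or date. The slope leaves out the Aqp2 probe set. The script was tested on simulated data. In 5 runs with 200 changed probe sets each, the clone 2 comparison recovered 1.2% of log2 differences of 0.5 and 43.6% of 1. Of differences of 2 it recovered 89.6%, and 7.03% of its calls were false at the threshold of 0.05. A small difference that was not called is thus not shown to be absent. The members and lists were chosen with earlier results of these data known. Of each list the text names up to 4 genes called in clone 2 or, with none called, the 2 of highest mean signal, and for each member the 3 genes of highest r. Alternatives changed the offset, filter, scaling, variance model, probe set and lines. No protein sequences were used here.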

Additional observations from a re-analysis of the deposited data

Results flagged for a closer look

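Among the 5 expressing lines, 1 probe set of a member had a line far from the others. A dim Tfcp2l1 probe set had a signal of 32.1 in clone 9, against 1.1 to 4.6 in the other expressing lines and 4.5 in clone 2, and the gap to the nearest line was 0.83 of the whole range (above Dixon's critical value). Chance gives a gap above the critical value, 0.71, in about 1 of 20 groups, and 12 member probe sets were looked at. All values of this probe set lie below the receptor mark of their arrays.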

How the results depend on the processing

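Each result was recomputed with other offsets (0 or doubled), filters (none, or the 75th percentile of 544.3, which leaves Gata2 untested), scalings (quantile, median centring), variance models and, in turn, without each line. Tfcp2l1 missed the threshold in all of these, with clone 2 differences of -0.44 to -0.31, and with Aqp2 as a covariate (-0.09). The Gata2 difference of clone 2 was -2.18 to -1.71 without 1 line. The Gata3 difference of -0.85 was not called without the trend (adjusted p = 0.0577) or with Aqp2 as a covariate, chosen after seeing the data (-0.90, adjusted p = 0.237), and was called in the other 12 settings. The Gata2 slope over 6 lines, 0.47, was not called with no filter (adjusted p = 0.0858) or without the trend (adjusted p = 0.0853), and was 0.41 to 0.56 without 1 expressing line. Over the 5 expressing lines it was 0.15 to 0.73 without 1 line. The Gata3 slope over 6 lines was -0.0139 to 0.179 without 1 line (called without clone 10, 0.17, adjusted p = 0.0417, and negative without clone 2), and over the 5 expressing lines 0.0023 with median centring and -0.0288 to 0.0194 without 1 line. Probe sets called in clone 2 numbered 560, against 210 with no filter, 219 without the trend, 8 with the covariate and 154 to 943 without 1 line. With median centring the split was 254 higher and 232 lower, against 184 and 376, and the median of all differences was 0.06 instead of -0.03. Slope calls over 6 lines numbered 397, against 51 with no filter, 1 without the trend and 0 to 645 without 1 line (0 without clone 11, where 3898 had an unadjusted p under 0.05 in limma). Slope calls over the 5 expressing lines numbered 3, against 0 with no filter, the higher filter or no trend, 5 with robust eBayes and 0 to 14 without 1 line. Uncalled list genes near 0 changed sign: Grhl2 (0.0915 centred, -0.0374 to 0.0189 without 1 line), Ubp1 (-0.0408 to 0.0703 without 1 line), Wnt7b (0.0012 centred, 0.14 with the covariate), Adam10 (0.0138 centred), Itga2b (0.88 with the covariate) and Epor (-0.16 with the covariate, -0.0203 to 0.113 without 1 line). The cause of these changes was not tested. No paired analysis was possible because each line gave 1 array and the labels number no replicates.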
